A study of Canis lupus familiaris with 10 samples.

Results

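The transcripts of 4 enzymes that break down arginine or tryptophan, NOS2, ARG1, ARG2 and IDO1, were examined in canine cutaneous histiocytoma (CCH), a benign skin tumor of dogs that derives from the Langerhans cell lineage and commonly regresses on its own. All 4 were present among the 800 genes of the nCounter Canine IO Panel and were taken by name, without a threshold on their values. The 10 tumors were formalin-fixed and paraffin-embedded (FFPE), had been excised from privately owned dogs and were each a separate sample. Early CCH (n = 5) was group 1 of the Cockerell and Slauson scheme, from dogs aged 0.5 to 5 years (age and sex not given for early 3; otherwise 3 male and 1 female). Late CCH (n = 5), group 3 of that scheme and labeled as enriched in lymphocytes, came from dogs aged 1.5 to 9 years (4 male, 1 female). Early 1 and early 5 were French Bulldogs, and early 2 to 4 a Goldendoodle, a Terrier and a Boxer. Late 1 to 5 were a Rottweiler, a Beagle, a Pug, a Bullterrier and a Jack Russell Terrier. Early 1, early 4 and late 1 were labeled as neutered, and no treatment was given in the labels. RNA was extracted from sections through the whole tumor face, with adjacent tissue removed. The values are therefore those of a mixture of tumor cells, infiltrating leukocytes and stroma.

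These enzymes are textbook markers of how myeloid cells handle amino acids. NOS2, the inducible nitric oxide synthase, converts arginine to nitric oxide and citrulline and is switched on in macrophages by interferon gamma together with microbial or inflammatory signals. ARG1 and ARG2, the cytosolic and the mitochondrial arginase, split the same amino acid into ornithine and urea and thereby compete with NOS2 for it; ARG1 in macrophages is classically induced by the cytokines IL-4 and IL-13. IDO1, indoleamine 2,3-dioxygenase, opens the tryptophan ring in the step that leads to kynurenine, is induced by interferon gamma in dendritic cells, macrophages and epithelia, and is known for restraining T cells.

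Values are normalized counts, that is, barcode counts scaled by the authors in each sample to spiked-in positive controls and to housekeeping genes. Unscaled barcode counts recovered from the table summed to 484696 to 823763 per early and 945399 to 1253083 per late sample, with no overlap. The background of a sample, the mean plus 2 SD of its 8 negative control probes, corresponded to 21.8 to 38.2 normalized counts in early and 19.2 to 26.9 in late CCH. The ratio of the strongest to the next positive control was 2.09 to 2.17 in early and 2.72 to 2.84 in late CCH, and the RNA quality measure DV200 was 64.5 to 71.2% and 71.2 to 75.8%. The DV200 of late 5 is that of its label, from which the study's RNA quality sheet differs, so that fits with DV200 as a covariate carry this uncertainty. Per the sample sheets of the study each stage had its own cartridge, and late blocks had been stored longer, so that cartridge, storage and stage cannot be told apart. The labels were checked against markers. The summed T cell markers were 654 to 12168 normalized counts in early and 18227 to 31865 in late CCH. Of 13 Langerhans and dendritic cell markers on the panel, 11 exceeded background in at least 1 early sample and 12 in at least 1 late sample, among them FLT3, CD86 and ITGAX in all 10 tumors. CD207 (langerin), the marker that defines Langerhans cells, exceeded it in only 1 tumor of each stage, and CD1B in none.

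IDO1 had the widest difference of the 4 enzymes and was higher in late CCH. Its normalized counts were 29.6, 514, 1061, 384 and 265 in early 1 to 5 and 3123, 2268, 1193, 3393 and 4490 in late 1 to 5. All late tumors lay above all early tumors, although the highest early tumor (early 3) came close to the lowest late one (late 3). The early tumors were also far apart from each other, because early 1 was only 1.36 times its background whereas the other early tumors were 7.50 to 32.7 times theirs. The stage means were 451 ± 385 (SD, n = 5) and 2894 ± 1239 (SD, n = 5).

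Differential expression was tested with limma on log2(normalized count + 1) over all 761 genes that averaged at least 20, with late CCH as baseline, so that a negative log2 fold change means higher in late CCH. Called genes are those that differed 2-fold or more and had a p, adjusted by the Benjamini-Yekutieli (BY) procedure, no higher than 0.05, which are the thresholds of the study. Passing the BH threshold means a Benjamini-Hochberg (BH) adjusted p no higher than 0.05. IDO1 had a log2 fold change of -3.24 (SE 0.82, 95% interval -5.05 to -1.43), or 9.45-fold higher in late CCH with an interval of 2.69-fold to 33.2-fold. This was past BH (limma BH adjusted p = 0.0129) and short of BY (limma BY adjusted p = 0.0932). With DV200, which differed between the stages, as a covariate it was short of BH too (-3.38, limma BH adjusted p = 0.141). The exact two-sided permutation p was 0.00794, the smallest that 5 samples against 5 allow. Only 0.92% of tested genes had a larger difference in either direction, and 3.02% had a larger spread within the stages. Early 1 carried much of both. Without it the log2 fold change was -2.44, or 5.43-fold, and the gene was called (limma BY adjusted p = 0.0454). It was also called without early 3 (-3.72, limma BY adjusted p = 0.0464). Among male dogs only, 3 early and 4 late, the difference was 15.1-fold (limma BH adjusted p = 0.0357).

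NOS2 was higher in late CCH as well, at far lower signal. Its normalized counts were 27.5, 71.2, 45.9, 44.5 and 34.1 in early 1 to 5 and 122, 135, 48.6, 103 and 230 in late 1 to 5. The early values were near background, at 0.964 to 1.87 times that of their sample, and 4 of 5 early tumors exceeded it at all. All 5 late tumors exceeded it, from 2.23 times in late 3 to 12.01 times in late 5. Of the late tumors 4 lay above every early tumor, and late 3 lay below early 2. These values rested on 18 to 42 barcode counts in early and 45 to 213 in late CCH. The exact Poisson 95% intervals of early 2 (51.3 to 96.3 normalized counts) and late 3 (35.4 to 65.0) overlapped; such intervals cover counting error only.

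NOS2 averaged 44.6 ± 16.7 (SD, n = 5) for the early tumors and 128 ± 66.0 (SD, n = 5) for the late tumors, a log2 fold change of -1.40 (SE 0.40, 95% interval -2.28 to -0.52). This was 2.64-fold (interval 1.43-fold to 4.87-fold) on a scale that understates differences of low genes. With the mean of the negative probes subtracted from each sample the difference was 4.32-fold (log2 fold change -2.11, limma BH adjusted p = 0.0147). The BH threshold was passed by NOS2 (limma BH adjusted p = 0.0205), the BY threshold was not (limma BY adjusted p = 0.148), and the exact two-sided permutation p was 0.0159. Without late 3 it was called (-1.70, limma BY adjusted p = 0.0389), and with DV200 as a covariate (-1.78) or among male dogs only (-1.28) it was short of BH (limma BH adjusted p = 0.117 and 0.144). A larger difference than that of NOS2 was found for 20.1% of tested genes.

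**Figure D1:**
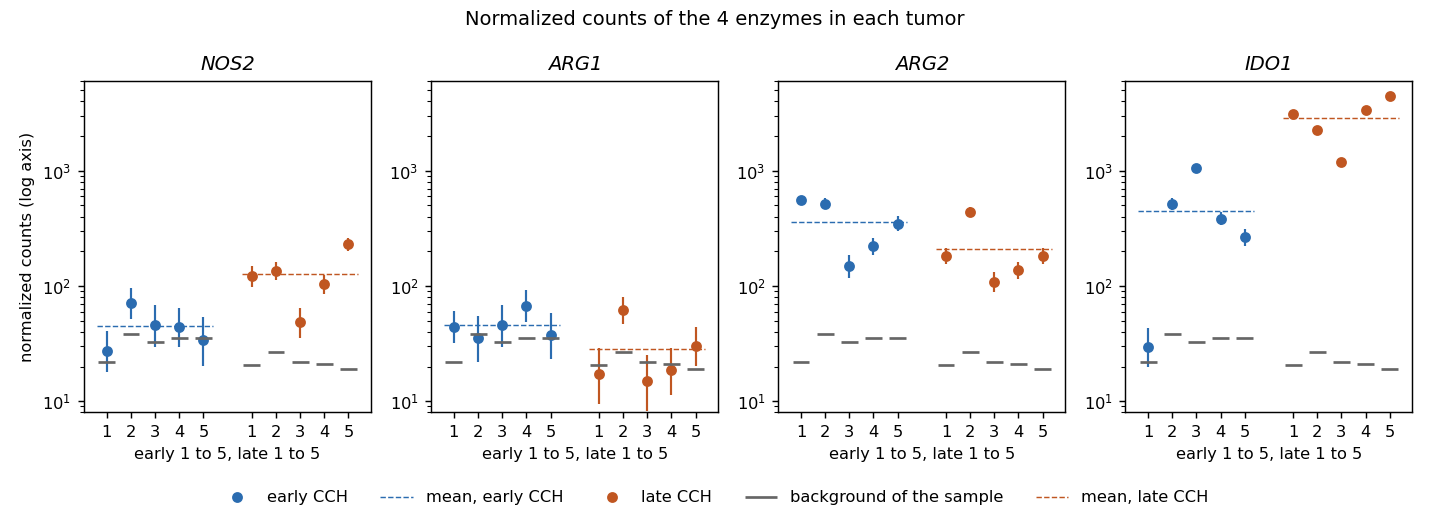
Normalized counts (log axis) of NOS2, ARG1, ARG2 and IDO1 in early 1 to 5 (blue) and late 1 to 5 (orange), with vertical lines for the exact Poisson 95% interval of the count, dashed lines for the mean of a stage and gray bars for the background of each sample. IDO1 does not overlap between the stages, NOS2 is near background in early CCH and 2.23 to 12.01 times background in late CCH, ARG1 stays at or near background, and ARG2 is well above background in all 10 tumors with overlapping stages.

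Both arginases were on average lower in late CCH, with overlapping stages, and neither passed a threshold. ARG2 was well measured, with 559.6, 517, 149, 221 and 347 normalized counts in early 1 to 5 and 184, 438, 108, 137 and 183 in late 1 to 5, each at least 4.58 times the background of its sample. Early 1, early 2 and late 2 were the highest tumors, and 4 of the 5 late values fell between 108 and 184. The early tumors averaged 359 ± 179 (SD, n = 5) and the late tumors 210 ± 132 (SD, n = 5). The log2 fold change was 0.78 (SE 0.46, 95% interval -0.23 to 1.79; limma BH adjusted p = 0.206), and the exact two-sided permutation p was 0.151. The interval reached from 0.853-fold to 3.47-fold for early over late CCH, and therefore allows both no difference and a substantial one. Among male dogs only, the difference was 2.67-fold (limma BH adjusted p = 0.0489), and under quantile normalization the log2 fold change was 1.31 (limma BH adjusted p = 0.0464).

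ARG1 was at the limit of detection. Its normalized counts were 44.4, 35.6, 45.9, 67.5 and 37.9 in early 1 to 5 and 17.4, 61.9, 15.1, 18.6 and 30.2 in late 1 to 5. It exceeded background in 4 of 5 early and 2 of 5 late tumors, and by no more than 2.30 times, in late 2. The log2 fold change was 0.84 (SE 0.37, 95% interval 0.02 to 1.66; limma BH adjusted p = 0.103), with an exact two-sided permutation p of 0.0794. Since the background itself was higher in early CCH on this scale, values were also raised to a common floor at the highest background of the 10 samples, 38.2, which left a log2 fold change of 0.12 (limma BH adjusted p = 0.660). Without late 2, by contrast, it was 1.16 and passed at BH (limma BH adjusted p = 0.0132), as it did under geometric mean scaling (1.22, limma BH adjusted p = 0.0208), TMM scaling (1.02, 0.0458) and among male dogs only (1.23, 0.0444).

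Counts over the 4 enzymes were read against the panel. Past the BH threshold were 2 of 4 enzymes, IDO1 and NOS2, and 35.7% of all tested genes. In the direction of late CCH these were 2 enzymes and 27.3% of tested genes, and in the direction of early CCH 0 enzymes and 8.41%. At the BY and 2-fold limits limma called 0 of 4 enzymes and 11.2% of tested genes, 9.2% as higher in late and 1.97% as higher in early CCH. At an unadjusted p under 0.05, limma passed NOS2, IDO1 and ARG1, and 345 of the 761 tested genes. The stages did not overlap for 1 of 4 enzymes and 24.6% of tested genes, which was IDO1 among the 19.2% higher in late CCH and 0 enzymes among the 5.39% higher in early CCH. The panel as a whole leaned toward late CCH, with a median log2 fold change of -0.18 over tested genes. The lean depended on scaling, since that median was 0.21 after geometric mean scaling. Of the genes called past BY and 2-fold, 70 were higher in late and 15 higher in early CCH, against 35 and 42 with geometric mean scaling, 34 and 47 with quantile normalization and 51 and 27 with TMM scaling. The direction of all 4 enzymes was the same in each of 21 alternative fits, these scalings included.

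**Figure D2:**
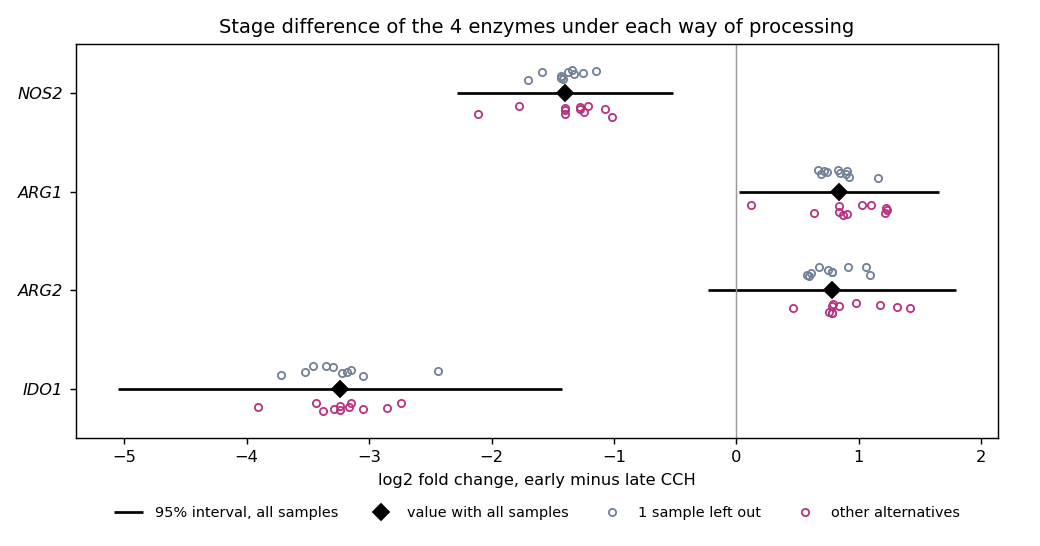
Log2 fold change (early minus late CCH, x axis) of the 4 enzymes with all samples (diamonds, with 95% intervals as lines), with 1 sample left out (gray circles) and under the other alternatives of processing (magenta circles). NOS2 and IDO1 stay below 0 and ARG1 and ARG2 above 0 throughout; the ARG1 value nearest 0 is the one with a common background floor, 0.12.

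The balance between the enzymes was tested within each tumor, because a log2 ratio of 2 genes in the same sample does not depend, but for the pseudocount, on how that sample was scaled. Only its difference between stages is read, since counts of different probes are not on one scale. For the 6 pairs the exact two-sided permutation p-values were adjusted by BH over the pairs. The ratio of NOS2 to ARG1 was 2.24 lower on the log2 scale in early than in late CCH (adjusted exact p = 0.0238, n = 5 per stage). It ranged from -0.67 to 0.98 in early and from 1.11 to 2.89 in late tumors, without overlap. Its size is uncertain, since ARG1 was not above background in 3 of 5 late tumors and NOS2 was near background in early CCH. With the common background floor the difference was -1.40 and with the negative probe mean subtracted -3.34 (adjusted exact p = 0.0238 for each, n = 5 per stage). The ratio of NOS2 to ARG2, in which only NOS2 was near background, was 2.18 lower in early CCH (adjusted exact p = 0.0238, n = 5 per stage), with a single meeting point at -1.67 in the highest early and -1.69 in the lowest late tumor.

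IDO1 differed from both arginases by more than NOS2 did. The ratio of ARG1 to IDO1 was 4.08 higher on the log2 scale in early CCH and that of ARG2 to IDO1 4.02 higher (adjusted exact p = 0.0238 for each, n = 5 per stage). For ARG1, not above background in 4 of the 10 tumors, the common background floor gave 3.29. Early 1, with IDO1 at 1.36 times background, carried part of these differences, which were 3.29 for ARG1 and 3.02 for ARG2 without it (adjusted exact p = 0.0357 for each, 4 early and 5 late tumors). The ratio of NOS2 to IDO1 was 1.84 higher in early CCH (adjusted exact p = 0.0286, n = 5 per stage), that is, IDO1 differed more between the stages than NOS2. This last difference was 1.19 without early 1 (adjusted exact p = 0.0381) and did not hold when the negative probe mean was subtracted (1.32, adjusted exact p = 0.152, n = 5 per stage). The ratio of ARG1 to ARG2 differed by 0.06 (adjusted exact p = 0.873, n = 5 per stage), with a range of -3.82 to -1.67 in early and -3.33 to -2.55 in late tumors. It has no settled direction, since ARG1 was not above background in 4 tumors and the difference was -0.66 with the common background floor and -0.12 with a pseudocount of 10.

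**Figure D3:**
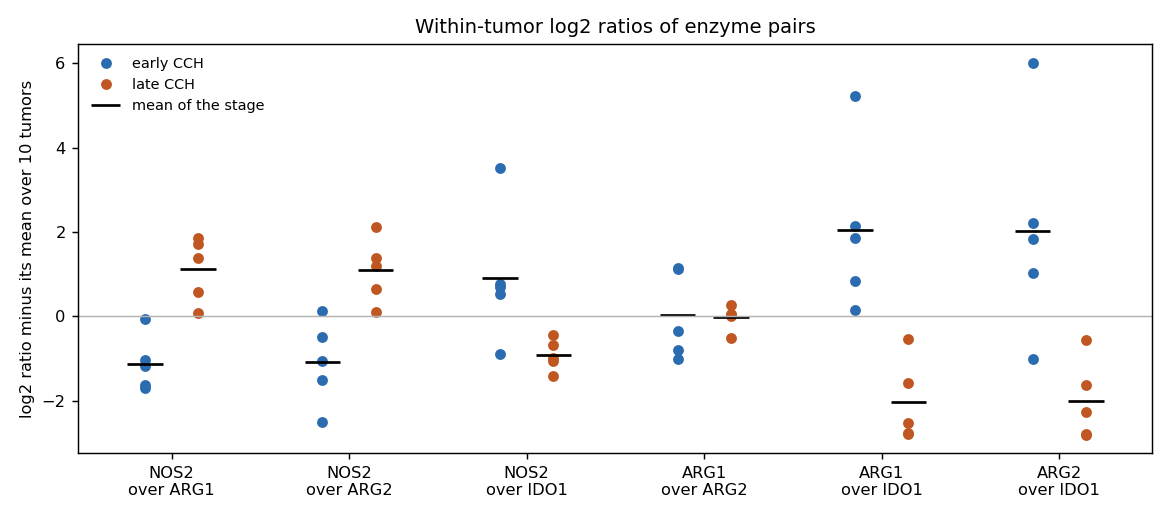
Within-tumor log2 ratio of each pair of enzymes, minus its mean over the 10 tumors (y axis), for early (blue) and late CCH (orange), with black bars for the stage means. Ratios of NOS2 to both arginases sit higher in late CCH, ratios of both arginases to IDO1 sit lower, and the ratio of ARG1 to ARG2 shows overlapping stages with a difference of 0.06, or -0.66 with the common background floor.

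The tumors at the extremes of NOS2 and IDO1 were partly the same. Late 5 had the highest value of both genes among all tumors and late 3 the lowest among late tumors, while early 1 had the lowest value of both. The order in between differed, and the highest early tumor was early 2 for NOS2 and early 3 for IDO1. The early order of NOS2 is of low certainty. Early 1 (27.5 normalized counts) was 1.26 times its background on 26 barcode counts, whereas early 5 (34.1) was 0.964 times its own on 18. Over the 10 tumors the Pearson correlation of log2 values between NOS2 and IDO1 was 0.85, and with the mean of each stage taken off it was 0.63. The corresponding values between ARG1 and ARG2 were 0.59 and 0.43. These correlations are descriptions over 10 samples that share depth and scaling differences, and no p is attached.

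The ranking for NOS2 is limited by its early values, which were 0.964 to 1.87 times background on 18 to 42 barcode counts. The genes most like NOS2 over the 10 tumors were GZMB (r = 0.95), LAP3 (0.94), ANKRD22 (0.94), IFNG (0.93) and GZMH (0.93). With the stage means taken off they were IFNG (0.89), GZMB (0.88), UBB (0.87), ANKRD22 (0.85) and LAP3 (0.85). IFNG encodes interferon gamma, and GZMB and GZMH encode granzymes of cytotoxic lymphocytes. IFNG had 20.1 to 134 normalized counts in early and 56.1 to 483 in late CCH. It exceeded background in 4 of 5 early and 5 of 5 late tumors. Its lowest late value was in late 3 and its highest in late 5, the same tumors as for NOS2. GZMB had 613 normalized counts in late 3, far under the 4738 to 5420 of the remaining late tumors.

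For IDO1 the most alike genes were CCL3 (r = 0.99), a chemokine of activated leukocytes, and NKG7 (0.97), CD8A (0.97), CD8B (0.97) and LOC480600 (0.97), followed in another order by the same genes with the stage means taken off (CCL3 0.99, LOC480600 0.94, CD8A 0.93, CD8B 0.93, NKG7 0.93). CD8A and CD8B are the chains of the coreceptor of cytotoxic T cells and NKG7 is a protein of cytotoxic granules. CCL3 had 63.5, 597, 1026, 407 and 301 normalized counts in early 1 to 5 and 1539, 1731, 1100, 1816 and 2494 in late 1 to 5. As with IDO1, early 1 was lowest, early 3 was highest of the early tumors and late 3 was lowest of the late tumors.

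Other genes ranked highest for the arginases. For ARG1 the ranking is of low certainty, since it was not above background in early 2 and in late 1, 3 and 4. The genes most like ARG1 were ERBB3 (r = 0.93), IL1RL2 (0.91), ANXA1 (0.89), IL12RB2 (0.87) and CDKN2A (0.87), and with the stage means taken off ERBB2 (0.97), ITGA2 (0.93), ERBB3 (0.92), ITGA1 (0.91) and IL1RL2 (0.87). ERBB2 and ERBB3 are growth factor receptors of epithelial cells. The genes most like ARG2 were IL1RAP (0.92), the shared accessory chain of interleukin-1 family receptors, MASP1 (0.90), S100A9 (0.87), IL1RN (0.86) and LGALS3 (0.86), and with the stage means taken off they included IL1RAP (0.95), MASP1 (0.89), TAL1 (0.89) and THBS1 (0.87). Late 2, the late tumor with the highest ARG1 and ARG2, also had the highest late values of ERBB2 (145 against 63.2 to 100 normalized counts) and IL1RAP (1735 against 236 to 1038).

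Marker sums of other cells followed ARG2 only in part. In late CCH the summed neutrophil markers (7 on the panel, with most of the sum from S100A8, S100A9 and S100A12, which keratinocytes and monocytes also express) were 35619 normalized counts in late 2 and 504 to 5385 in the others. In early CCH they were 37935 in early 1 and 28498 in early 2, the tumors with the highest ARG2, then 19893 in early 4, whose ARG2 was 221, and 1342 to 2007 in early 3 and early 5, although ARG2 in early 5 was 347. The neutrophil granule gene ELANE exceeded background in no tumor. The 3 keratinocyte markers summed to 652 to 5612 in early and 489 to 3824 in late CCH, with 3127 in late 2 and the highest late sum in late 5. None of the 6 tested neutrophil or 3 tested keratinocyte markers passed the BH threshold with all samples and the main scaling, where 35.7% of all tested genes did. Under geometric mean scaling 1 neutrophil marker passed as higher in early CCH, beside 193 of 761 tested genes. Under quantile normalization 1 keratinocyte marker did, beside 180 of 761. Without early 2, 1 neutrophil marker passed as higher in late CCH, beside 210 of 761. Among male dogs only, 3 of 6 neutrophil markers passed as higher in early CCH, beside 27 of all 761 tested genes. Their list median was 2.35 there, against 0.84 in all dogs. Both arginases passed BH in that subset too. All 12 T cell markers were higher in late CCH past the BH threshold (median log2 fold change -2.91), beside 27.3% of all tested genes. All 12 also passed under geometric mean, quantile and TMM scaling, beside 151, 144 and 177 of 761 tested genes. With DV200 as a covariate 1 of 12 passed (median -2.09), beside 28 of 761 as higher in late CCH. Among male dogs only 7 of 12 passed, beside 106 of 761. CD6 (-3.23), CD5 (-2.94), CD4 (-2.86) and CD247 (-2.29) were called (limma BY adjusted p = 0.00746, 0.0196, 0.0247 and 0.0293). In mixed tissue, fewer cells of a type and less RNA per cell cannot be told apart, and the part of these cells in the enzyme values was not tested.

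The panel covered the neighborhood of the enzymes unevenly. Of 13 listed genes for arginine transport, nitric oxide and polyamine metabolism other than the 4 enzymes, such as NOS3 and ODC1, 0 were on the panel. Of 10 listed genes of tryptophan breakdown and its receptor AHR, the panel held only IDO2, the paralog of IDO1, which lies close to it in the dog genome with the gene LOC475575 between them. IDO2 was near background, with 20.1 to 47.7 normalized counts in early and 36.2 to 45.9 in late CCH. Its log2 fold change was -0.03 (SE 0.25, 95% interval -0.59 to 0.52, limma BH adjusted p = 0.929). In early CCH it was 0.922 to 1.47 times background and in late CCH 1.40 to 2.24 times, where the scale understates differences. The interval therefore does not exclude a difference of the size seen for IDO1 in the transcript itself.

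The interferon gamma pathway, which acts on NOS2 and IDO1, had a negative log2 fold change for 6 of 8 tested genes. Among these was SOCS1, a feedback inhibitor of the pathway, which passed neither threshold (-1.50, limma BH adjusted p = 0.0711). Past the BH threshold, 4 were higher in late and 1 higher in early CCH, beside 27.3% and 8.41% of all tested genes, with a median log2 fold change of -1.14, or 3 and 1 under geometric mean, quantile and TMM scaling. With DV200 as a covariate 0 of 8 passed in either direction, while the median was -1.11. Among male dogs only 2 passed as higher in late and 1 as higher in early CCH with a median of -1.31. Over all 761 tested genes, 28 passed as higher in late and 17 as higher in early CCH with DV200. Among male dogs only these counts were 106 and 27. Under geometric mean, quantile and TMM scaling they were 151 and 193, 144 and 180, and 177 and 132. IRF1, a transcription factor that acts on both enzymes, was called, with 528 to 1532 normalized counts in early and 2453 to 3770 in late CCH (log2 fold change -1.70, limma BY adjusted p = 0.0161). IRF8 (-1.43) and JAK1 (-0.48) were among those that passed at BH (limma BH adjusted p = 0.0150 and 0.0160). IFNG itself had -1.66 and passed neither threshold (limma BH adjusted p = 0.0599). The receptor chain IFNGR1 ran the other way and passed the BY but not the 2-fold limit (0.98, limma BY adjusted p = 0.0235). JAK2 had 0.02 (limma BH adjusted p = 0.943).

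Among 9 other interferon gamma targets, 6 passed the BH threshold as higher in late CCH and 0 as higher in early CCH (median -1.05). Of all tested genes 27.3% and 8.41% did. Under geometric mean scaling 5 and 1 passed, beside 151 and 193 of all 761 tested genes. With DV200 as a covariate 1 of 9 passed, higher in late CCH, beside 28 of 761, while the median was -1.002. GBP5, a guanylate-binding protein of cell-autonomous defense, PSMB10, an immunoproteasome subunit, and TAP1, a peptide transporter, were called (-2.26, -1.17 and -1.05; limma BY adjusted p = 0.0247, 0.0161 and 0.0141). CD274, which encodes PD-L1, had -1.60 (limma BH adjusted p = 0.0106). CXCL10 had -2.36 and passed neither threshold (limma BH adjusted p = 0.156). All late tumors nevertheless lay above all early tumors for CXCL10, as for 19.2% of tested genes. Only 0.526% of tested genes had a larger spread within the stages. PSMB9 (0.44) and CIITA (0.26) did not pass either (limma BH adjusted p = 0.239 and 0.426).

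Inflammatory signals act on NOS2 alongside interferon gamma. Of 12 tested genes, which were ligands, receptors, NF-kB carriers and HIF1A, 2 passed the BH threshold, both higher in late CCH (median 0.24), where 35.7% of all tested genes did. These were HIF1A, the hypoxia-inducible factor, which was called with 774 to 1145 normalized counts in early and 1540 to 2063 in late CCH (log2 fold change -1.003, limma BY adjusted p = 0.0120), and RELA, a subunit of NF-kB (-0.47, limma BH adjusted p = 0.0117). TNF (-0.52, limma BH adjusted p = 0.293) and IL1B (0.98, 0.340) passed neither threshold, and IL1B exceeded background in 3 of 5 early and 2 of 5 late tumors. The split of this list depended on scaling, with 1 gene higher in late and 4 higher in early CCH past the BH threshold under geometric mean scaling and quantile normalization, and 1 and 2 under TMM scaling. With DV200 as a covariate it was 1 and 0. The split over all 761 tested genes moved as well. It was 151 and 193 under geometric mean scaling, 144 and 180 under quantile normalization and 177 and 132 under TMM scaling. With DV200 it was 28 and 17.

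Of 12 tested genes of the cytokine axis linked to arginase, 3 passed the BH threshold as higher in late and 3 as higher in early CCH. Of all tested genes 27.3% and 8.41% did. Under geometric mean scaling 0 and 6 passed, beside 151 and 193 of all 761 tested genes. With DV200 as a covariate 0 and 1 passed, beside 28 and 17 of 761. The list median of 0.26 has no settled sign, being 0.01 with the common background floor and -0.08 with the negative probe mean subtracted. IL13RA1, a receptor chain for IL-4 and IL-13, was called as higher in early CCH (1.19, limma BY adjusted p = 0.00543), with 1520 to 2289 normalized counts in early and 749 to 947 in late tumors. IL10 (1.41) and IL10RA (0.59), the cytokine and its receptor, were also higher in early CCH past BH (limma BH adjusted p = 0.0300 and 0.0334). STAT3 (-0.63), IL4R (-0.59) and STAT6 (-0.38) were higher in late CCH (limma BH adjusted p = 0.00438, 0.0357 and 0.0252). IL4 and IL13 each exceeded background in 2 of 5 early and 1 of 5 late tumors. TGFB1 had 0.23 (limma BH adjusted p = 0.280).

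Macrophage markers, the usual carriers of NOS2 and ARG1, summed to 2988 to 8442 normalized counts in early and 4422 to 8321 in late CCH. Of 9 tested, 2 passed BH as higher in late and 0 as higher in early CCH, beside 27.3% and 8.41% of all tested genes. CD68 was called as higher in late CCH (-1.29, limma BY adjusted p = 0.0293) and MSR1 was past the BH threshold (-1.67, limma BH adjusted p = 0.0369), whereas CD163 (-0.31, 0.679) and MRC1 (1.00, 0.0508) did not pass. The list median of -0.35 has no settled sign, being 0.04 under geometric mean scaling, -0.89 with DV200 as a covariate, -0.73 without early 2 and 0.05 without early 4. Geometric mean scaling and quantile normalization each gave 1 macrophage marker past BH in each direction. TMM scaling gave 2 higher in late and 1 higher in early CCH, and DV200 as a covariate 1 and 0. Over all 761 tested genes, geometric mean scaling passed 151 as higher in late and 193 as higher in early CCH. Quantile normalization passed 144 and 180, TMM scaling 177 and 132, and DV200 as a covariate 28 and 17. Of the 12 tested Langerhans and dendritic cell markers, 3 passed the BH threshold as higher in late CCH and 3 as higher in early CCH, beside 27.3% and 8.41% of all tested genes, or 1 and 4 under geometric mean scaling and 0 and 2 with DV200 as a covariate. FLT3 (2.49) and FCER1A (2.44) were called as higher in early CCH, and CD86 (0.97) passed the BY but not the 2-fold limit (limma BY adjusted p = 0.0102, 0.0353 and 0.0161). CCR7 (-1.68), XCR1 (-1.60) and CD83 (-1.30) were higher in late CCH (limma BH adjusted p = 0.0170, 0.0359 and 0.0109). The same shares of tested genes apply to the remaining cells. Of the B cell markers, 5 of 7 were higher in late CCH past the BH threshold, and CD79A, a chain of the B cell receptor, was called (-2.61, limma BY adjusted p = 0.0293). The endothelial cadherin CDH5 (-0.98, limma BH adjusted p = 0.00808) was the 1 of 3 endothelial markers past that threshold, higher in late CCH. Of 4 mast cell markers, CPA3 (1.38), MS4A2 (0.97) and HDC (0.94) were higher in early CCH (limma BH adjusted p = 0.0363, 0.0350 and 0.0133). HDC exceeded background in 2 of 5 early and 0 of 5 late tumors. Of these lists, the common background floor left 1 of 7 B cell and 1 of 4 mast cell markers past BH. Subtraction of the negative probe mean left 5 and 0. Over all 761 tested genes the floor left 202 higher in late and 63 higher in early CCH, and subtraction 219 and 52. With 1 sample left out, 2 to 5 of the B cell and 1 to 3 of the mast cell markers passed. With DV200 as a covariate 0 B cell, endothelial or mast cell markers passed, and the list medians were -1.13, 0.12 and 1.15, against -1.87, -0.41 and 0.95 without it.

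**Figure D4:**
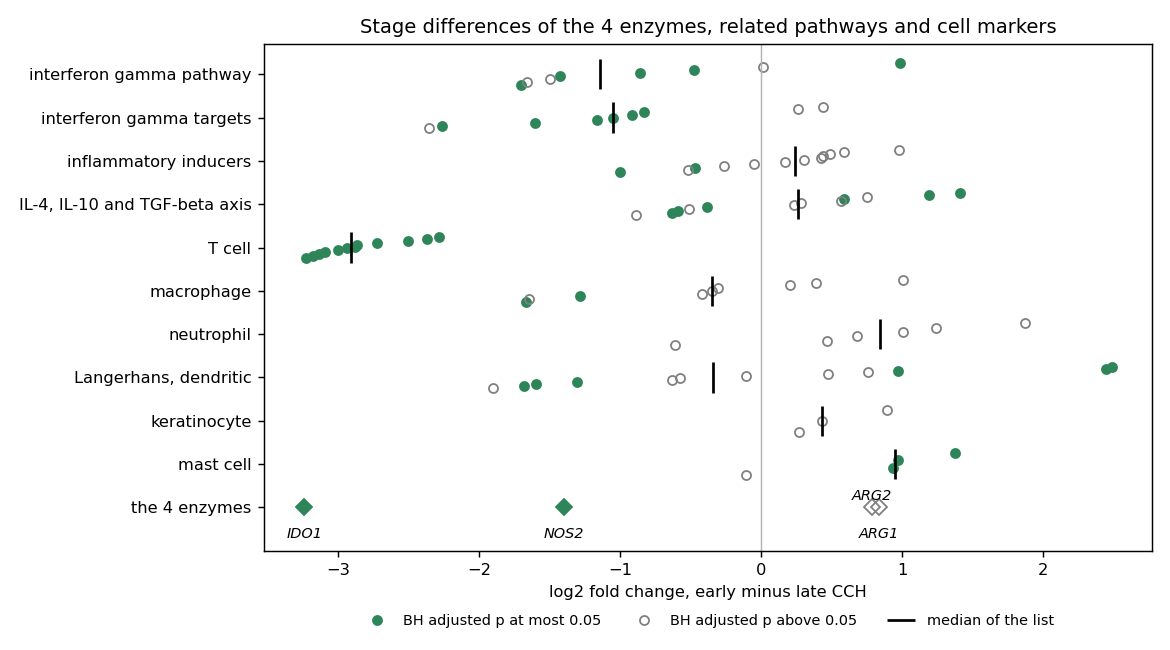
Log2 fold change (early minus late CCH, x axis) of each tested gene in pathway and cell marker lists (rows) and of the 4 enzymes (diamonds), filled where the BH adjusted p was at most 0.05, with black bars for list medians. IDO1 lies at -3.24, beside the lowest T cell marker (CD6 at -3.23), NOS2 at -1.40 among the interferon gamma genes (medians -1.14 and -1.05), and ARG1 and ARG2 on the early side.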

How the data were processed

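The deposited table held a normalized signal for 800 genes and 14 unscaled control probes (6 positive, 8 negative) in 10 samples. The authors measured RNA with the nCounter Canine IO Panel and normalized the deposited signal in nSolver 4.0 to positive controls and then to housekeeping genes; background subtraction was not given in the sources used here. Gene values of a sample were whole multiples of 1 step (within 0.0051 for at least 99.4% of genes), and division by it gave the barcode counts used for depth and background. The control rows of the table are unscaled, and no count model was fitted.

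Tests used limma 3.58.1 in R 4.3.3 (lmFit, eBayes with trend) on log2(normalized count + 1) for 761 genes with a mean of at least 20, and exact permutation tests over the 252 regroupings of 5 against 5 (each sample from a different dog). Call thresholds follow the study. The fit was tested on simulated data. Members and gene lists were chosen with earlier results of these data known. Named genes are the 4 enzymes, the 5 most correlated genes of each, up to 4 genes per list past a threshold, and a list of direct partners (such as IFNG, TNF and TGFB1). Some genes that this rule names are not reported here. Further list genes (such as JAK2, CD163 and LOC475575) and GZMB, CCL3, ERBB2 and IL1RAP values were added after values were seen. Alternatives covered pseudocount, filter, scaling, background, covariates, sex, batches and leaving out each sample. Extraction batches came from the study's sample sheets, matched to the samples by breed and, as far as given, age, sex and DV200. Gene symbols are those of the table; of 800, 773 matched RefSeq symbols of assembly UU_Cfam_GSD_1.0, which is not the build of the panel, and coordinates are left out.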

Additional observations from a re-analysis of the deposited data

Results flagged for a closer look

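ARG2 in late 2 stood apart from the other late tumors, with 438 normalized counts against 108 to 184. The gap to the nearest tumor was 0.771 of the range of the stage, above the critical value of 0.71 for 5 samples. Of 20 groups of 5 values checked for the enzymes and their ratios this was the only 1 past that value, and chance gives about 1 in 20. Single enzymes were checked on normalized counts without a log, unlike in the fits, and the check was not repeated on log2 values. The summed neutrophil markers of late 2 were 35619 normalized counts against 504 to 5385 in the other late tumors. Their part in the ARG2 value was not tested. Without late 2 the log2 fold change of ARG2 was 1.09 (limma BH adjusted p = 0.0702), against 0.78 with all samples.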

How the results depend on the processing

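Each enzyme kept its direction in all 21 alternatives, 10 of which left out a sample. NOS2 passed the BH threshold in 19 of them and IDO1 in 20; the exceptions were DV200 as a covariate for both (limma BH adjusted p = 0.117 and 0.141, with log2 fold changes of -1.78 and -3.38) and male dogs only for NOS2 (0.144). ARG1 passed in 4 and ARG2 in 2. Past the BY and 2-fold limits IDO1 moved with the extraction batch as a random block (-3.29, limma BY adjusted p = 0.0460). Leaving out a sample gave -1.70 to -1.15 for NOS2, -3.72 to -2.44 for IDO1, 0.67 to 1.16 for ARG1 and 0.58 to 1.09 for ARG2. The ARG1 to ARG2 ratio, a difference of 0.06, reversed to -0.12 with a pseudocount of 10 and to -0.66 with a background floor, and ranged from -0.22 to 0.31 with a sample left out. That of NOS2 to IDO1 was 1.32 after background subtraction, an alternative chosen after seeing the data, and no longer passed; the cause was not tested. Over all genes, 85 were called past BY and 2-fold, against 0 with DV200, 0 among male dogs, 1 with the replicate block, 118 with the extraction batch as a random block and 39 to 98 with a sample left out; past BH the counts were 272, 45 (DV200), 133 (males) and 228 (block). Under geometric mean scaling 35 were called higher in late and 42 higher in early CCH, against 70 and 15. With DV200 and among males 197 and 278 genes had an unadjusted p under 0.05. With the replicate block, the log2 fold changes of NOS2 and IDO1 were -1.40 and -3.24 (limma BH adjusted p = 0.0440 and 0.0351). Numbers do not pair the tumors, since deviations of equal numbers correlated between -0.20 and 0.16 and 1 of 5 early samples correlated best with its own number. A count test on recovered barcode counts was not run. Low signal limits NOS2 in early CCH and ARG1 in both stages.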
